A study of Homo sapiens with 9 samples.

Results

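Chromosome 18 carried 1001 of the 67528 transcript clusters on the array. The 200 described here were chosen by their level, as those with a mean log2 value of at least 7 over the 9 arrays, and were then ordered by gene position. Of these, 136 carried 1 gene symbol with a known position, 35 on the short arm and 101 on the long arm, counting ROCK1 as the first long-arm gene. The other 64 had no usable position and are described separately. The chromosome itself was selected on KD minus SCR and KD minus WT, so those differences are given as a description, and the test results printed with them are read as no support.

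RNA came from 22Rv1, a human prostate cancer cell line, on 9 Affymetrix Human Transcriptome Array 2.0 chips. The KD line carried an shRNA against SSX2, a cancer-testis antigen, and the SCR line carried a scramble shRNA. Both were transfected with lipofectamine and kept under neomycin, whereas WT cells were untransfected. Each group had 3 arrays that the labels call technical replicates. The p-values therefore cover technical spread alone, and no separately derived line was available to compare. KD minus SCR and KD minus WT share the same KD arrays. RNA integrity numbers averaged 2.50 per the labels. The SSX2 transcript, whose probes do not separate it from its copy SSX2B, read 5.19, 5.06 and 5.14 in KD, against 11.94, 11.94 and 11.94 in SCR and 11.89, 11.89 and 11.98 in WT. The luminal keratin KRT8 averaged 11.17 in KD, against 11.09 in SCR and 11.27 in WT, and the leukocyte marker PTPRC 3.06 in KD, against 3.10 in SCR and 3.08 in WT. HOXB13, a prostate lineage factor, averaged 6.44 in KD, against 8.77 in SCR and 8.99 in WT.

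Human chromosome 18 has a small short arm and a longer long arm on either side of the centromere. It is poor in genes, and several of its long-arm genes are studied in cancer, among them SMAD4, which relays TGF-beta signals, and the apoptosis inhibitor BCL2. SS18, also on the long arm, is the partner of SSX genes in the fusion found in synovial sarcoma. An array reads the RNA level of each gene, and in bulk RNA fewer cells with a transcript and less RNA per cell cannot be told apart.

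Most short-arm members were higher in KD, but the long arm did not behave as a unit. The differences split the chromosome into 2 stretches, and the border lay inside the long arm, between TPGS2 and CELF4. The promoters of the 2 positioned members on each side of it are shown because these genes mark where the direction turned. Each covers 300 bases, most of them upstream of a listed start of the gene, and is written 5′ to 3′. Each window is the first that the RefSeq table lists for that gene on GRCh38.p14. It need not lie at the outermost start of the gene, and other starts are not shown. Capitals mark GC boxes (GGGCGG or CCGCCC) and CCAAT boxes (CCAAT or ATTGG) on either strand, and neighbouring GC boxes may overlap. FHOD3 and TPGS2 lie before the border, CELF4 and PIK3C3 after it.
FHOD3, chr18:36297463-36297762, plus strand: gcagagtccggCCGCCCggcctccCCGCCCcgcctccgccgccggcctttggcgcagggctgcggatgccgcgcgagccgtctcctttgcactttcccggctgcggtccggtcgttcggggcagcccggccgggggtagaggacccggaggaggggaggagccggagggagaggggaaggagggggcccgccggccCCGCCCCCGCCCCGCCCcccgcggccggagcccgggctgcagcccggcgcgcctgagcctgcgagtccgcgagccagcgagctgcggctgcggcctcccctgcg
TPGS2, chr18:36828953-36829252, minus strand: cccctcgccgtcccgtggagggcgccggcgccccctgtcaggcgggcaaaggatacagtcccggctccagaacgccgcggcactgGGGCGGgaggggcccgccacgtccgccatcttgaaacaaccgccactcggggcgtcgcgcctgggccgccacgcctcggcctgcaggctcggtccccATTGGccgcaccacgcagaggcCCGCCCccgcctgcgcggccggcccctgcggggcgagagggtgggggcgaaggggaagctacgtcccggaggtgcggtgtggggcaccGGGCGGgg
CELF4, chr18:37485743-37486042, minus strand: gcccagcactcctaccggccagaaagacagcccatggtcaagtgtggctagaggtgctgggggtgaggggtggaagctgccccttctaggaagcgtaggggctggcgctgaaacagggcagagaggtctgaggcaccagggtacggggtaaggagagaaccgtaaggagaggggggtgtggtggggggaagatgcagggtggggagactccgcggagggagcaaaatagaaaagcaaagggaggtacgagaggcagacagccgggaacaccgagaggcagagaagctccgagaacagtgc
PIK3C3, chr18:41954984-41955283, plus strand: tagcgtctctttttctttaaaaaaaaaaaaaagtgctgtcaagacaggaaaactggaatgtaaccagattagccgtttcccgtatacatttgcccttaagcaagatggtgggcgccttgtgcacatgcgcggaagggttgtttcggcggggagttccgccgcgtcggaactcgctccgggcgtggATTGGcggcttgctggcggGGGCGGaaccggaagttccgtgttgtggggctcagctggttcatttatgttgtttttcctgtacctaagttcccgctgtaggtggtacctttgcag

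The FHOD3 window held 42 CpG dinucleotides and 5 GC boxes, and the TPGS2 window 39 CpG and 3 GC boxes. The CELF4 window held 11 CpG and 0 GC boxes, and the PIK3C3 window 21 CpG and 1 GC box. A CCAAT box stood in the TPGS2 and PIK3C3 windows and a TATA box (TATAAA or TTTATA) in none of the 4. Over the 27305 genes with a promoter in the table, the median was 14 CpG, and 44.6% held a GC box, 35.7% a CCAAT box and 12.0% a TATA box. These matches are letters in a window and were not tested as binding sites. Among members with a promoter in the table, the median was 30.0 CpG for the 59 before the border and 28.5 for the 54 after it, and a GC box stood in 74.6% and 72.2% of them. A CCAAT box stood in 23.7% before the border and 37.0% after it.

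Before the border lay 70 positioned members, 35 on the short arm and 35 on the long arm, and after it lay 66. Before it the median KD minus SCR was 0.61 on the log2 scale (1.53-fold) and the median KD minus WT 0.62. After it the medians were -0.65 (0.639-fold) and -0.69. Over all 17215 transcripts of the array with a mean of at least 7, the medians were -0.09 and -0.09. Before the border 62 of 70 members were higher in KD than in SCR and 58 higher in KD than in WT. After it, 13 of 66 and 12 of 66 were. Across the array, 40.9% of such transcripts had a higher mean in KD than in SCR and 41.6% a higher mean in KD than in WT.

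**Figure D1:**
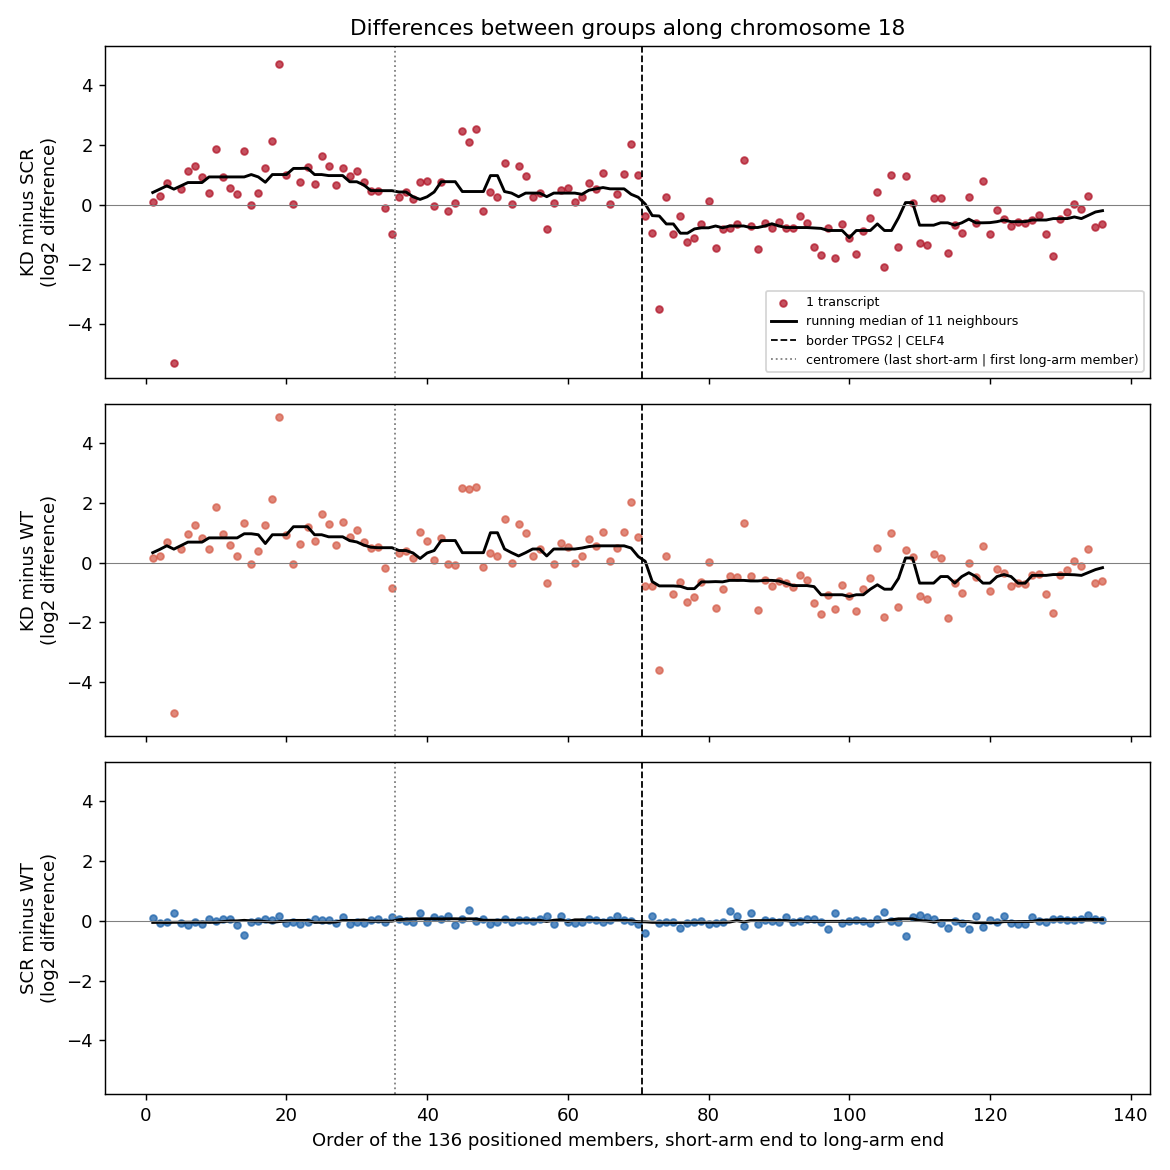
Each point is 1 of the 136 positioned members in order along the chromosome, with KD minus SCR (top), KD minus WT (middle) and SCR minus WT (bottom) on the log2 scale and the running median of 11 neighbours as a line. The running median stays above 0 before the dashed border in both KD panels and lies below 0 for nearly all of the stretch after it, while SCR minus WT stays close to 0 throughout.

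Splitting the ordered members into stretches of at least 10 gave 2 stretches for KD minus SCR and for KD minus WT, both with this border. SCR minus WT, treated alike, stayed 1 stretch with a median of -0.01. Set against the 6 control arrays, each KD array alone gave the same border. The medians before and after it were 0.59 and -0.62 for the KD array 1, 0.65 and -0.64 for array 2, and 0.59 and -0.68 for array 3. The short arm had medians of 0.75 for KD minus SCR and 0.69 for KD minus WT. The long-arm part before the border had medians of 0.44 and 0.49, which are on the same side of 0 as the short arm. Taken whole, the long arm mixed both directions, with medians of -0.36 and -0.34 and 44 of its 101 members higher in KD than in SCR. Its median KD minus SCR was -0.18 with a level minimum of 6, and with members of no known position placed by ID number the short-arm and long-arm medians were 0.46 and -0.18.

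Every KD array stood apart from every control array in both stretches. Before the border the median deviation from a transcript's own 9-array mean was 0.40, 0.43 and 0.40 in KD, against -0.22, -0.19 and -0.19 in SCR and -0.20, -0.19 and -0.23 in WT. After it the same score was -0.42, -0.42 and -0.46 in KD, against 0.20, 0.23 and 0.24 in SCR and 0.24, 0.24 and 0.20 in WT. Over all transcripts with a mean of at least 7 the score ran only from -0.07 to 0.04 over the 9 arrays. The SCR and WT arrays overlapped in both stretches.

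**Figure D2:**
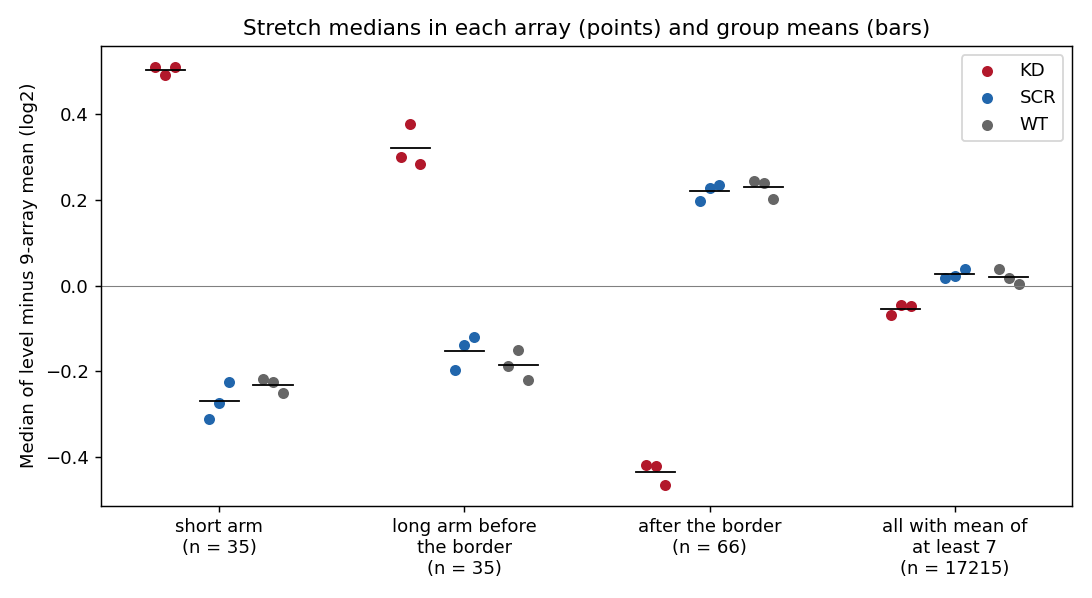
Points show, for each array, the median over a stretch of a member's level minus its own 9-array mean (log2), and bars show the mean of the 3 arrays of a group. KD lies above both controls on the short arm and on the long arm before the border, and below both after it, at -0.42 to -0.46.

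A transcript was called where limma, fitted over all 67528 transcripts and all 9 arrays, gave a Bonferroni-adjusted p under 0.05. In KD against SCR, 33 of 70 members before the border were called higher and 3 lower, and after it 3 of 66 were called higher and 37 lower. In KD against WT the counts were 35 higher and 2 lower before the border, and 2 higher and 35 lower after it. Against SCR, the background among transcripts with a mean of at least 7 was 9.35% called higher and 11.7% called lower, and among all transcripts 4.08% and 4.68%. Against WT it was 9.6% and 11.2% among transcripts with a mean of at least 7, and 4.13% and 4.49% among all transcripts. Over all 200 members, KD against SCR gave 46 called higher and 51 called lower, and KD against WT gave 46 and 48. Without array 2 of SCR, the count called in KD against SCR was 62 in place of 97. The methods' one-way ANOVA with Bonferroni adjustment called 7 members in KD against SCR and 6 in KD against WT. Its background was 2.02% and 1.46% among transcripts with a mean of at least 7, and 0.745% and 0.532% among all transcripts. Of the limma calls, 37 of 97 in KD against SCR and 36 of 94 in KD against WT were lost without at least 1 of the 9 arrays, 10 and 9 of them whichever array was left out. Among calls named below, those of MYL12B, ADNP2 and MBD1 against both controls, of CYB5A, MBD2 and TXNL4A against SCR, and of AFG3L2, THOC1 and PIK3C3 against WT were lost whichever array was left out. Calls of AFG3L2, ANKRD20A5P, FECH, NAPG, NDC80, NF1P5, PIK3C3, RTTN, SMAD4, THOC1 and TIMM21 against SCR were lost without some of the arrays. So were those of CELF4, CYB5A, DTNA, ME2, NAPG, NDC80, NF1P5, RTTN, SMAD4 and TIMM21 against WT. Both with arrays centred on their medians and with quantile normalization, calls of MBD1 against both controls and PIK3C3 against WT were lost. Calls of CYB5A, TIMM21 and TXNL4A against SCR were lost under both as well. Centring but not quantile normalization lost the calls of ADNP2 against both controls, ANKRD20A5P against SCR and DTNA against WT. Quantile normalization but not centring lost that of MYL12B against SCR.

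All 3 KD arrays lay beyond all 6 control arrays in the direction of the stretch for 55 of 70 members before the border and for 52 of 66 after it. In the other direction they did so for 4 and 9 members. Among all array transcripts with a mean of at least 7, 29.7% had every KD array above all controls and 42.3% had every KD array below them. The chromosome was selected on these contrasts, so the shares describe it and test nothing.

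Few bright transcripts lay close to the border. Reading toward it, RPRD1A, a protein that binds the tail of RNA polymerase II, averaged 9.96 in KD, against 8.91 in SCR and 8.95 in WT. SLC39A6, a zinc transporter, was level across the groups, at 10.73 in KD, against 10.72 in SCR and 10.69 in WT. MOCOS, the molybdenum cofactor sulfurase, read 9.30, 9.07 and 8.88 in KD, against 8.17, 8.02 and 8.05 in SCR and 8.05, 8.08 and 8.08 in WT. The actin-assembling formin FHOD3 read 8.31, 8.52 and 8.53 in KD, against 6.43, 6.42 and 6.45 in SCR and 6.46, 6.39 and 6.46 in WT. TPGS2, a subunit of the tubulin polyglutamylase complex, read 11.32, 11.28 and 11.28 in KD, against 10.34, 10.31 and 10.28 in SCR and 10.48, 10.37 and 10.45 in WT. All 3 KD arrays were above all controls in MOCOS, FHOD3 and TPGS2, with KD minus SCR of 1.01, 2.02 and 0.98.

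The next member, CELF4, an RNA-binding regulator of splicing, was lower in KD, but its control groups also differed. It read 6.75, 6.78 and 6.68 in KD, against 7.10, 7.10 and 7.12 in SCR and 7.48, 7.48 and 7.60 in WT. PIK3C3, the class III phosphatidylinositol 3-kinase, read 6.79, 6.85 and 6.67 in KD, against 7.69, 7.71 and 7.78 in SCR and 7.54, 7.67 and 7.48 in WT. SYT4, a synaptotagmin of secretory vesicles, read 5.23, 5.41 and 5.51 in KD, against 8.89, 8.88 and 8.87 in SCR and 8.95, 8.93 and 8.99 in WT. KD minus SCR was -0.37 for CELF4, -0.96 for PIK3C3 and -3.49 for SYT4, and no KD array overlapped a control.

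Transcripts under the level minimum filled part of the gap. KIAA1328, between TPGS2 and CELF4, averaged 6.46 in KD, against 5.72 in SCR and 5.83 in WT, on the side of the stretch before the border. The long noncoding RNA MIR924HG, between CELF4 and PIK3C3, averaged 5.20 in KD, against 4.03 in SCR and 4.02 in WT, so a higher transcript lay past CELF4. SETBP1, which binds the SET oncoprotein and follows SYT4, averaged 5.57 in KD, against 7.21 in SCR and 7.69 in WT. The place of the border also depended on which members were bright. With only members whose mean reached 7 in each group, CELF4, PIK3C3 and SYT4 dropped out, and the border came to lie between EPG5 and ATP5F1A. A minimum of 8 left no member between TPGS2 and ATP5F1A, and the border lay in that gap.

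**Figure D3:**
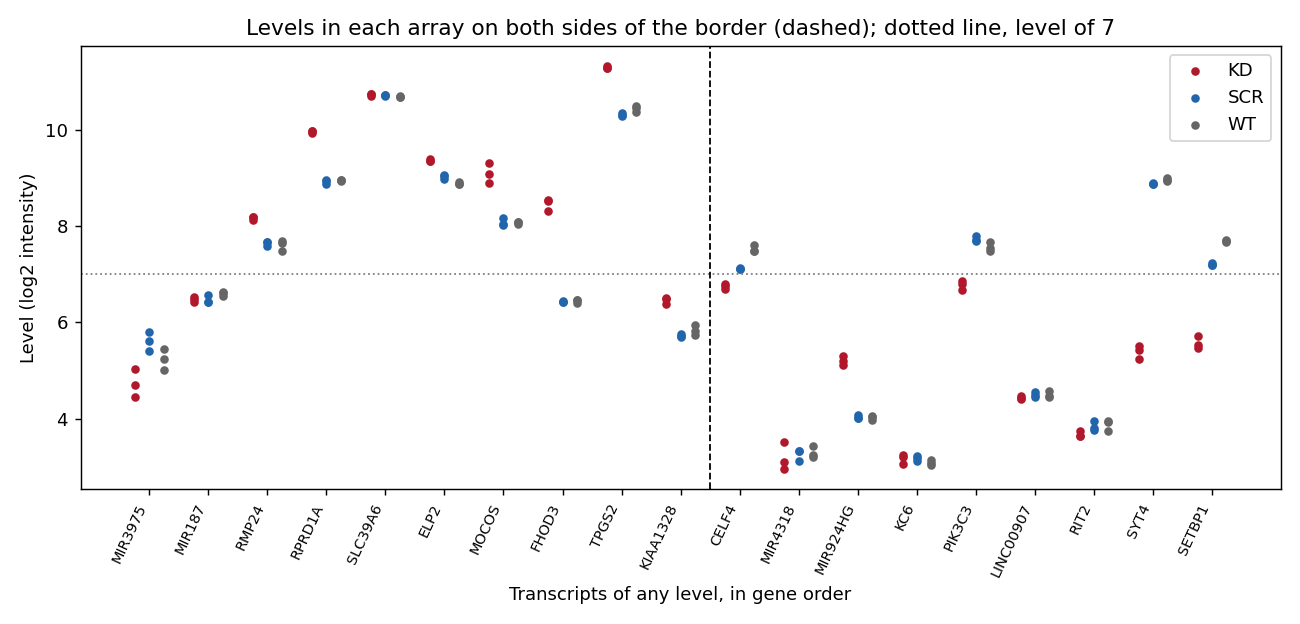
Levels (log2 intensity) in each array are shown for 19 transcripts of any level in gene order around the border, with KD, SCR and WT side by side. KD lies above the controls in most bright transcripts left of the dashed border, at 11.28 to 11.32 in TPGS2, and below them in CELF4, PIK3C3, SYT4 and SETBP1 to its right, whereas MIR924HG on the right is higher in KD.

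On the short arm 31 of 35 members were higher in KD than in SCR, and 20 were called higher and 2 lower. Among all transcripts with a mean of at least 7, 9.35% were called higher and 11.7% lower against SCR. RAB31, a small GTPase of membrane traffic, was furthest above the controls, at 12.00, 11.87 and 11.81 in KD, against 7.12, 7.27 and 7.16 in SCR and 7.06, 7.08 and 6.98 in WT, or 26.2-fold KD over SCR. Its neighbour PPP4R1, a regulatory subunit of protein phosphatase 4, read 10.61, 10.76 and 10.75 in KD, against 8.57, 8.60 and 8.61 in SCR and 8.58, 8.61 and 8.55 in WT. LPIN2, a phosphatidate phosphatase of lipid synthesis, read 8.49, 8.39 and 8.25 in KD, against 6.49, 6.48 and 6.57 in SCR and 6.51, 6.54 and 6.51 in WT. None of these groups of KD arrays overlapped a control array.

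Further short-arm members higher in KD were the GTPase RAB12 (1.80 against SCR and 1.32 against WT), the inositol monophosphatase IMPA2 (1.62 and 1.63), the methyltransferase METTL4 (1.30 and 1.24) and the tubulin TUBB6 (1.28 and 1.31). CHMP1B, a subunit of the ESCRT-III complex, differed by 1.26 and 1.20 but was not called, with KD arrays at 8.49, 8.12 and 7.94. The gene for thymidylate synthase, TYMS, which makes a DNA precursor, averaged 10.64 in KD, against 10.12 in SCR and 10.19 in WT and was not called. The kinetochore gene NDC80 read 9.79, 9.80 and 9.81 in KD, against 8.76, 8.89 and 8.95 in SCR and 8.95, 9.06 and 8.92 in WT. The myosin light chains MYL12A and MYL12B, near-identical neighbours whose probes may share signal, had KD minus SCR of 0.92 and 0.55.

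The collectin COLEC12, a scavenger receptor near the short-arm end, ran against its neighbours. It read 4.23, 4.16 and 4.32 in KD, against 9.49, 9.60 and 9.54 in SCR and 9.27, 9.29 and 9.26 in WT, or 39.5 times lower in KD than in SCR. It was the largest difference of any positioned member, while THOC1 on one side of it and TYMS on the other had KD minus SCR of 0.74 and 0.52. ANKRD20A5P, a pseudogene of a multicopy ankyrin family at the centromeric end of the arm, was the other short-arm member called lower, against SCR alone, averaging 7.50 in KD, against 8.47 in SCR and 8.37 in WT.

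On the long arm before the border, the largest differences stood next to each other. NPC1, the lysosomal cholesterol exporter, read 11.10, 10.97 and 10.90 in KD, against 8.51, 8.56 and 8.57 in SCR and 8.49, 8.50 and 8.47 in WT. ANKRD29 read 8.79, 8.61 and 8.28 in KD, against 6.48, 6.47 and 6.51 in SCR and 6.17, 6.08 and 6.11 in WT. CABYR, a calcium-binding protein of the sperm tail, read 9.12, 8.93 and 9.03 in KD, against 6.47, 6.53 and 6.49 in SCR and 6.57, 6.54 and 6.41 in WT. These 3 consecutive members had KD minus SCR of 2.45, 2.08 and 2.53. The members around them differed less, with -0.21 for the kinase RIOK3, 0.05 for RMC1 and -0.22 for the oxysterol-binding protein OSBPL1A.

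TAF4B, a subunit of the general transcription factor TFIID, had a KD minus SCR of 1.40, and the desmosomal cadherin DSG2 1.28. DSG2 read 10.88, 10.84 and 10.83 in KD, against 9.55, 9.58 and 9.58 in SCR and 9.52, 9.55 and 9.60 in WT. SS18 read 9.90, 9.98 and 10.01 in KD, against 9.69, 9.68 and 9.73 in SCR and 9.70, 9.80 and 9.77 in WT, so the arrays did not overlap, although the difference of 0.26 was not called. GATA6, an endodermal transcription factor, had overlapping arrays and a KD minus SCR of -0.03. DTNA, a dystrobrevin of the dystrophin complex, was the only long-arm member before the border called lower, at 6.94, 7.11 and 7.01 in KD, against 7.81, 7.86 and 7.83 in SCR and 7.68, 7.69 and 7.69 in WT.

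After the border, SYT4 had the largest difference, and NEDD4L, a ubiquitin ligase that acts on membrane channels, the next. NEDD4L read 8.78, 8.68 and 8.60 in KD, against 10.76, 10.79 and 10.82 in SCR and 10.48, 10.51 and 10.49 in WT. RAB27B, a GTPase of vesicle secretion, read 6.44, 6.56 and 6.47 in KD, against 8.23, 8.29 and 8.33 in SCR and 7.98, 8.10 and 8.03 in WT. BCL2 read 5.75, 6.08 and 5.85 in KD, against 7.51, 7.47 and 7.57 in SCR and 7.82, 7.71 and 7.71 in WT. KD was below every control array in all 3.

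The zinc finger factor TSHZ1, the translesion DNA polymerase POLI, the homeobox factor ONECUT2 and the motor MYO5B had KD minus SCR of -1.71, -1.68, -1.64 and -1.48. SMAD4 read 8.37, 8.43 and 8.34 in KD, against 9.09, 9.14 and 9.20 in SCR and 9.19, 9.23 and 9.12 in WT. Its relative SMAD2, nearer to the border, read 9.43, 9.29 and 9.24 in KD, against 9.11, 9.19 and 9.25 in SCR and 9.27, 9.33 and 9.27 in WT, with overlapping arrays. DYM, a Golgi protein next to SMAD2 in the order, averaged 8.32 in KD, against 9.77 in SCR and 9.84 in WT. The last member, the transcription factor ADNP2, averaged 8.17 in KD, against 8.81 in SCR and 8.80 in WT, so lower members reached the long-arm end.

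After the border, 3 members were called higher in KD than in SCR. ACAA2, a thiolase of mitochondrial fatty acid breakdown, read 7.90, 8.03 and 7.94 in KD, against 6.51, 6.55 and 6.34 in SCR and 6.65, 6.68 and 6.58 in WT. The paracaspase MALT1 read 7.99, 7.97 and 7.92 in KD, against 6.91, 6.96 and 6.99 in SCR and 6.97, 7.07 and 6.86 in WT. LMAN1, a cargo receptor between endoplasmic reticulum and Golgi, read 10.06, 10.04 and 10.02 in KD, against 9.04, 9.14 and 9.11 in SCR and 9.66, 9.60 and 9.61 in WT. LMAN1 was called against SCR alone, and its KD minus WT was 0.42. MALT1 and LMAN1 lay close together, and the running medians of both KD contrasts were above 0 at LMAN1 and the next member and below 0 on either side.

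**Figure D4:**
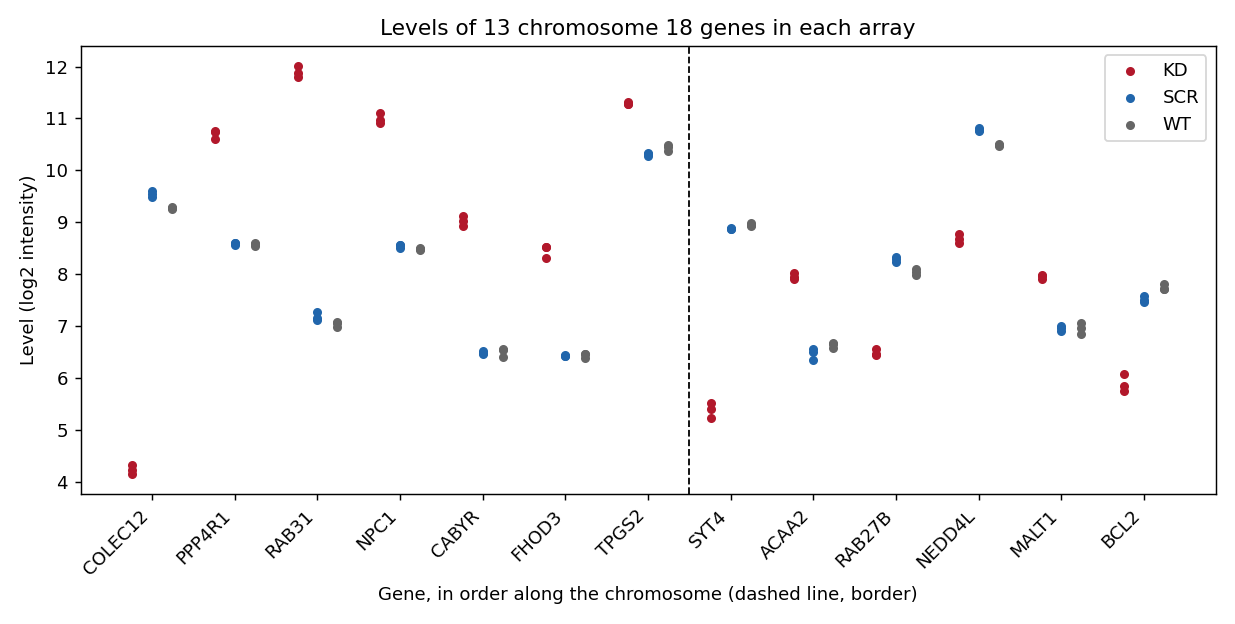
Levels (log2 intensity) in each array are shown for 13 members in order along the chromosome, with KD, SCR and WT side by side. KD lies above all controls in 6 of the 7 genes left of the dashed border, COLEC12 being the exception, and below them in SYT4, RAB27B, NEDD4L and BCL2 to its right, with ACAA2 and MALT1 higher in KD.

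Most role lists held members on both sides of the border, and their calls are given by side. Of the 13 membrane traffic genes among the members, 8 lay before the border and 5 after. Before it RAB31, RAB12, VAPA, NAPG and NPC1 were called higher in KD than in SCR and in KD than in WT, and the median KD minus SCR of the 8 was 1.13. VAPA, a membrane tether of the endoplasmic reticulum, and NAPG, a factor of vesicle fusion, had differences of 1.00 and 0.75. CHMP1B (1.26), TRAPPC8 (0.25) and OSBPL1A (-0.22) were not called. After it RAB27B, MYO5B, the ESCRT ATPase VPS4B (-0.95) and the signal peptidase subunit SEC11C (-1.43) were called lower against both controls. LMAN1, the fifth, was called higher against SCR (0.94). The median of the 5 was -1.43, beside -0.65 over all members after the border.

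Of 8 members on the list of mitochondrial genes, 2 lay before the border and 6 after. Before it AFG3L2, a subunit of the inner membrane protease, had a KD minus SCR of 0.66 and was called, whereas NDUFV2, a subunit of respiratory complex I, had -0.01. After it 5 of 6 were called lower against both controls, and ACAA2 was called higher against both (1.49 and 1.32). Over all members after the border, 56.1% were called lower against SCR and 53.0% against WT. Among the 5 were ATP5F1A, the alpha subunit of ATP synthase (-0.99), the malic enzyme ME2 (-0.80) and FECH, which completes heme (-0.87). The others were the import factor TIMM21 (-0.71) and CYB5A (-0.57), a cytochrome b5 found mainly in the endoplasmic reticulum although listed here. The CYB5A call against SCR was lost whichever array was left out, and that of TIMM21 without 8 of the 9. ATP5F1A read 9.27, 9.29 and 9.25 in KD, against 10.26, 10.28 and 10.24 in SCR and 10.30, 10.33 and 10.32 in WT, with no overlap.

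Kinases, phosphatases and related signalling enzymes numbered 8 members, 5 of them before the border. Of these, PPP4R1, IMPA2, the SRC-family kinase YES1 (KD minus SCR 1.12) and the tyrosine phosphatase PTPN2 (1.14) were called higher. ROCK1, a kinase of actomyosin contraction, with 0.26, was not. Over all members before the border, 47.1% were called higher against SCR. After it PIK3C3 was called lower, while the AKT phosphatase PHLPP1 had 0.22 and the polymerase phosphatase CTDP1 -0.25. All 6 cytoskeletal members lay before the border. MYL12A, MYL12B, TUBB6 and the actin nucleator SPIRE1 (1.21) were called higher and DTNA lower, and the microtubule-binding MAPRE2 had 0.06.

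Chromatin and DNA repair genes among the members numbered 7. The 3 before the border, SMCHD1 (0.38), INO80C (0.26) and SS18 (0.26), were not called. The 4 after it, POLI, the methyl-CpG binders MBD1 (-0.62) and MBD2 (-0.62) and the CpG-binding factor CXXC1 (-0.77), were called lower in KD than in SCR, and MBD2 was not called in KD against WT. The calls of MBD1 and MBD2 were lost whichever array was left out. Over all members after the border, 56.1% were called lower against SCR. Of 9 transcription factors, TAF4B was called higher before the border, where GATA6, ZNF24 and ZNF519 had -0.03, 0.07 and -0.13. After it ONECUT2, TSHZ1 and ADNP2 were called lower, and ZNF236 (-0.47) and ZNF407 (-0.36) were not.

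Mitosis genes among the members were 3 on each side. NDC80 was called higher before the border, with CEP192 (0.47) and the cohesin acetyltransferase ESCO1 (0.42) not called, and RTTN was called lower after it (-0.999), with SKA1 (-0.57) and HAUS1 (-0.38) not called. For ubiquitin and proteasome genes, the assembly chaperone PSMG2 (0.97) and the ligase MIB1 (0.79) were called higher before the border, where USP14 and RNF138 had 0.29 and 0.38. NEDD4L was called lower after it, where SOCS6 had -0.18. Among RNA processing genes THOC1 and RPRD1A were called higher before the border, with SNRPD1 at 0.17 and RIOK3 at -0.21. TXNL4A, a spliceosome protein near the long-arm end, had -0.73 after it and was called against SCR alone, a call lost whichever array was left out and with arrays centred or quantile normalized.

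In TGF-beta and BMP signalling, TWSG1, an extracellular BMP modulator on the short arm, was called higher (1.21), SMAD4 lower, and SMAD2 was not called. In apoptosis BCL2 was called lower and MALT1 higher, and PMAIP1, a BCL2 antagonist, had 0.07. SERPINB8 was the only clade B serpin bright enough to be a member, with 0.26. Role genes under the level minimum included larger differences. The desmocollins DSC3 and DSC2, on the cadherin list with DSG2, averaged 7.48 and 8.48 in KD, against 3.79 and 5.77 in SCR and 3.74 and 5.62 in WT. The other desmosomal cadherins on that list, DSC1, DSG1, DSG3 and DSG4, had KD minus SCR of 0.14, -0.01, 0.10 and -0.06 and were not called. The phosphatase PTPRM and the laminin chain LAMA1, both on the short arm, averaged 7.88 and 7.01 in KD, against 4.79 and 5.00 in SCR and 4.76 and 5.01 in WT. N-cadherin, CDH2, lies before the border but averaged 4.84 in KD, against 5.92 in SCR and 5.86 in WT. After it, the transcription factor TCF4 averaged 5.35 in KD, against 6.98 in SCR and 7.06 in WT. CDH7, a classical cadherin also after the border, averaged 4.83 in KD, against 6.87 in SCR and 6.19 in WT.

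SCR against WT was not used to choose the chromosome and could be tested. By limma with Bonferroni adjustment 0 of 200 members were called, 48 had an unadjusted p under 0.05, and the one-way ANOVA of the compared groups called 0. The unadjusted share was 11.8% among all transcripts and 18.5% among those with a mean of at least 7, and the ANOVA's 0.0118% and 0.0232%. The share called by limma with Bonferroni adjustment was 0.215% among all transcripts and 0.488% among those with a mean of at least 7. At a Benjamini-Hochberg-adjusted p under 0.05, limma called 14 members, 8 higher and 6 lower in SCR, beside 1.82% of all transcripts and 3.68% of those with a mean of at least 7. The largest difference was that of LMAN1, at -0.53 (SE 0.05, limma Bonferroni-adjusted p = 0.059). RAB12 followed among named members with -0.47 (SE 0.06, limma Benjamini-Hochberg-adjusted p = 0.0041). Before and after the border, the medians of SCR minus WT were -0.0049 and -0.02, and 34 of 70 and 31 of 66 members were above 0.

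Neighbours often moved together in both KD contrasts. The longest run of members with the same sign against both controls held 18 members lower in KD, from SCARNA17 to NARS1. Runs of 12 followed, higher from NAPG to FAM210A on the short arm and lower from RTTN to CTDP1 near the long-arm end. A run of 10 higher members went from TYMS to RAB12 and another of 9 from INO80C to TPGS2, which ended at the border. Of neighbouring pairs of positioned members, 72.6% had the same sign of KD minus SCR. On the 22 other chromosomes this share ran from 48.1% to 68.8%, with a median of 60.0%. For KD minus WT it was 71.1%, against 51.5% to 68.2% elsewhere. Because the chromosome was selected on these contrasts, its higher share is a description and no support.

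Within a stretch the differences varied with level. Members with a mean of at least 8 had median KD minus SCR of 0.74 before and -0.71 after the border, and with transcripts down to a mean of 6 included the medians were 0.55 and -0.62. Positioned transcripts with means from 5.5 to 7 had medians of 0.24 before the border, where 24 of 34 were above 0, and -0.05 after it, where 7 of 33 were. Over all positioned transcripts under 7 the rise before the border was absent, with a median of -0.01 and 40 of 83 above 0. After it their median was -0.05, with 22 of 92 above 0. A level minimum over all arrays lets some members in through 1 side alone. Of the 200 members, 45 had a group mean under 7, 24 of them in KD alone and 17 in both controls but not in KD. With a mean of at least 7 in each group, the medians of KD minus SCR were 0.53 over 59 members before the border and -0.63 over 47 after it.

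At the level minimum itself, the members just inside were ZNF271P (mean 7.02, KD minus SCR 0.57), ACAA2 (7.02 and 1.49) and INO80C (7.03 and 0.26). Just outside were CEP76 (6.996 and 1.12), a centrosome protein, and a pair of transcripts with no symbol (6.99 and -0.29, 6.96 and -0.01).

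Members without a known position did not show the split. In the array's numbering, transcript IDs follow position, which placed 42 of the 64, 31 before the border and 11 after. Their median KD minus SCR was -0.03 before and -0.11 after it, and -0.07 for the 22 that could not be placed. With the 42 placed members included, the medians over each stretch were 0.46 and -0.62, and the border stayed between TPGS2 and CELF4. Part of the spread came from the centromeric end of the short arm. Between ANKRD20A5P and ANKRD30B lay 7 members with no symbol, of which 2 are copies with identical values, so that 6 are distinct. Of the 6, 4 were called lower against both controls. Their differences ran from -2.61 to -1.46 against SCR and from -2.09 to -1.30 against WT. Of the 7, 6 held the very values of transcripts listed elsewhere, most of them on other chromosomes, so their signal cannot be assigned to this chromosome.

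**Figure D5:**
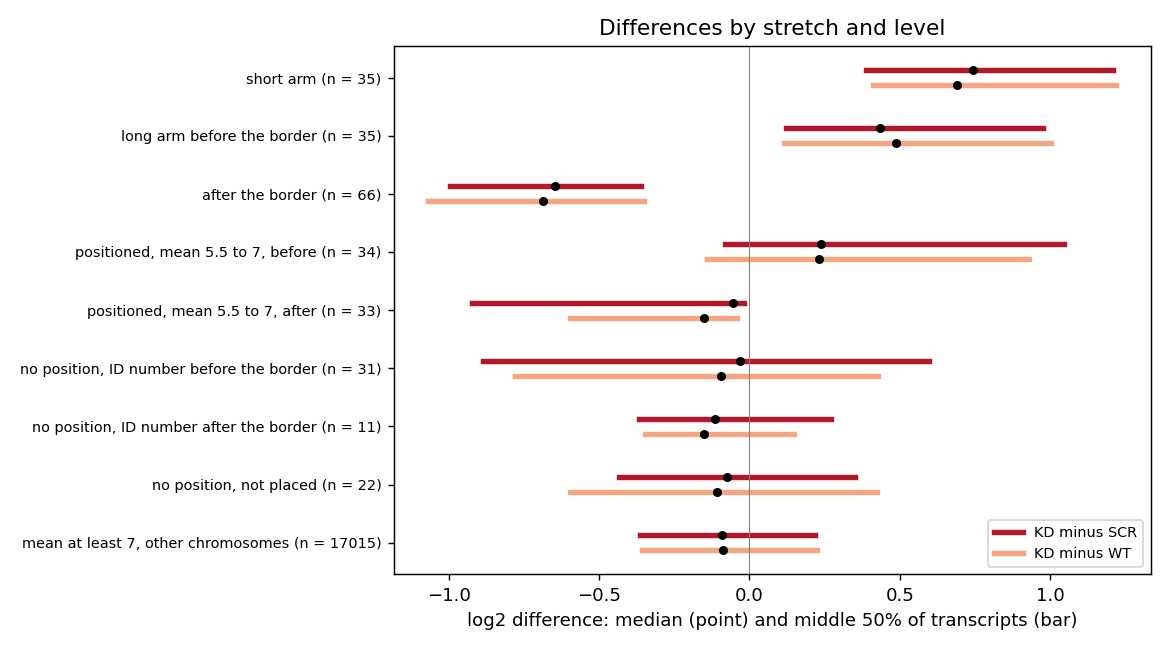
Points show the median and bars the middle 50% of KD minus SCR (dark) and KD minus WT (light) on the log2 scale, for positioned members, dimmer positioned transcripts, members with no position and transcripts of other chromosomes. For positioned members the middle 50% lies wholly above 0 in both stretches before the border and wholly below 0 after it. For positioned transcripts with means of 5.5 to 7 it spans 0 before the border and lies below 0 after it. It also spans 0 for members with no position and on other chromosomes.

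Level, on which the members were chosen, and gene length and type, which did not enter the choice, are given without a test. Median level in the controls was 8.30 before the border and 8.21 after it, and median gene length 52.2 and 42.7 kb. Protein-coding genes made up 66 of 70 members before the border and 60 of 66 after it. For protein-coding members alone the medians of KD minus SCR were 0.70 and -0.65.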

How the data were processed

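According to the methods, the authors used RMA normalization on the 9 arrays, which yields the deposited log2 intensities. Per the labels' processing notes, Affymetrix Expression Console and Transcriptome Analysis Console 3.0 were used, and the build of the array's annotation is not given there. Of 70523 probe sets, 67528 transcript clusters were tested. In R 4.3.3, limma 3.58.1 with eBayes was run on the 9 arrays together, 1 mean for each of the groups, with Bonferroni adjustment over all transcripts at 0.05, after the study's methods. Gene order came from RefSeq on GRCh38.p14, used for order, names and promoters only. With Python 3.11.15, pandas 2.3.3 and numpy 2.4.6, stretches were found by minimising absolute deviations from stretch medians, with at least 10 members a stretch and at most 8 stretches. Both scripts were tested on simulated data.

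Named genes were the members of 14 role lists, the 8 highest and 8 lowest KD minus SCR on each arm among members without overlap of KD and control arrays, the 3 members on each side of the border, the 5 largest SCR minus WT, the 3 members on each side of the level minimum, and the first and last member. The members and lists were chosen with earlier results of these data known. The naming rule also covered ROCK1P1, the first member (KD minus SCR 0.09), and ANKRD12 (0.39), which are not described above and were not called. Genes named outside the rule, such as TYMS, DYM and SLC39A6, were chosen after their values were seen. Alternatives covered the adjustment, the fit, the scaling, the level minimum, gene placement, stretch settings, the array number as a block and each array left out in turn. As a check of pairing, deviations of same-numbered arrays from their group means correlated with r from -0.27 to 0.26, so the numbers were not taken as pairs.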

Additional observations from a re-analysis of the deposited data

How the results depend on the processing

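The border stayed between TPGS2 and CELF4, after position 70 in the order of the 136 members, in all 9 fits that left out 1 array, with 1 transcript per gene, with members placed by ID number, with stretches of at least 5 or 20, and with squared deviations. With a minimum of 6 it lay between KIAA1328 and CELF4. In both KD contrasts, a minimum of 8 left no member between TPGS2 and ATP5F1A, so its border, up to position 74, passed no member. With every group mean at least 7 (a setting chosen after seeing the data) it lay after EPG5, again at position 74. A running median over 21 neighbours first reached 0 after position 72, between PIK3C3 and SYT4.

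The directions of the medians held in every alternative run. The medians before and after the border, and their alternatives, were added after seeing the data. With arrays centred, the medians of KD minus SCR were 0.81 (short arm), -0.29 (long arm), 0.68 (before) and -0.58 (after), and of KD minus WT 0.76, -0.26, 0.69 and -0.61. Quantile normalization gave -0.28 for the long arm against SCR, and 0.68 and -0.27 for the arms against WT. The median over all transcripts was -0.057 against SCR and -0.061 against WT as deposited, and 0.008 and 0.012 with arrays centred. A minimum of 6 gave 0.69, -0.18, 0.55 and -0.62 against SCR and 0.64, -0.21, 0.58 and -0.60 against WT, and a minimum of 8 gave 0.84, -0.51, 0.74 and -0.71 against SCR and 0.76, -0.45 and 0.68 (before) against WT. With members placed by ID number these were 0.46, -0.18, 0.46 and -0.62 against SCR and 0.45, -0.15, 0.45 and -0.61 against WT. With every group mean at least 7, the long arm gave -0.21 and -0.18, the stretch before the border 0.53 and 0.56, and the one after it -0.61 against WT. The cause of these moves was not tested.

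Leaving out 1 array gave short-arm medians of 0.72 to 0.77 against SCR and 0.67 to 0.74 against WT, and long-arm medians of -0.42 to -0.25 and -0.43 to -0.22, the last without array 1 of WT. Before the border they ran from 0.54 to 0.67 and 0.58 to 0.65, and after it from -0.68 to -0.64 and -0.71 to -0.65. Leaving out an array also changes which transcripts reach the level minimum.

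Counts of members called were 97 in KD against SCR and 94 in KD against WT. They were 168 and 160 with Benjamini-Hochberg adjustment and 60 and 57 with only the compared groups fitted by limma. The one-way ANOVA of the compared groups gave 7 and 6 (the cause was not tested). Without 1 array they ran from 62 (without array 2 of SCR) to 82 and from 63 to 75. The replicate block, with the array number as a block, gave 62 and 53, and the numbers do not pair the arrays. SCR against WT went from 0 to 14 with Benjamini-Hochberg adjustment, and 1 was called with dim transcripts left out or with quantile normalization. The 3 technical replicates a group limit the precision.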

Other observations

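Small RNAs and pseudogenes were few among the positioned members. Before the border they were 3 transcribed pseudogenes and 1 long noncoding RNA, and after it 3 small nucleolar RNAs, 1 pseudogene, 1 long noncoding RNA and 1 other noncoding RNA. RNU6-39P, a copy of the U6 spliceosomal RNA after the border, had a KD minus SCR of 0.79 and a KD minus WT of 0.57 and was not called, and such copies share sequence with other U6 genes. NF1P5, a pseudogene with no position in the table that its ID number places beside ANKRD20A5P, averaged 7.60 in KD, against 6.76 in SCR and 6.76 in WT and was called higher against both.

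Among members with no symbol, the largest differences with a KD above both controls were a transcript between ANKRD29 and TTC39C, at 8.98 in KD, against 6.97 in SCR and 6.73 in WT, and a transcript that could not be placed, at 8.49 in KD, against 6.53 in SCR and 6.58 in WT. The transcript next to ANKRD29 lies beside the run from NPC1 to CABYR, where KD minus SCR was 2.08 to 2.53. A transcript between PIEZO2 and GNAL on the short arm averaged 7.73 in KD, against 9.51 in SCR and 9.41 in WT, against the direction of its positioned neighbours.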
